A study of Homo sapiens with 17 samples.

Results

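Readthrough genes are annotated loci whose transcripts start in a gene and continue, usually by splicing past its end, into the next gene on the same strand. The genes described here had a deposited editing value but no deposited abundance, and a symbol made of 2 gene names joined by a hyphen. Both the part before the first hyphen and the part after it had to be symbols of other genes in the same table, which are called the upstream and the downstream component. This gave 65 readthrough-named genes among the 18869 genes of the table, or 3.31% of the 1964 genes without an abundance value. They had 130 different component genes, none of which was itself a readthrough-named gene.

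The measurement was Ribo-STAMP in HEK293T cells, an established line from human embryonic kidney. In RPS2-STAMP cells the cytidine deaminase APOBEC1 was fused to the ribosomal protein RPS2, so that RNAs in contact with ribosomes gain C-to-U edits, and in Control-STAMP cells APOBEC1 was expressed alone. Both constructs were integrated with lentivirus and induced for 24 h with 50 ng/ml doxycycline, and cells were crosslinked with 0.1% formaldehyde. RNA came from the Input and from immunoprecipitates (IPs) of PABPC, the mainly cytoplasmic poly(A)-binding protein, and PABPN, the mainly nuclear form, which were taken from the same lysates. The paper describes using only cytoplasm from fractionated cells for these samples, Input included, whereas the labels state no fractionation. The labels give 17 samples. RPS2-STAMP had 9, with 3 in each fraction, and Control-STAMP had 8, with 2 in PABPC IP and 3 in each of the others.

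Editing was deposited as normalized EPKM, the number of edits per kilobase of transcript and scaled to the number of mapped reads, in RPS2-STAMP after subtraction of the control, and abundance as an average TPM per fraction. There was 1 pooled EPKM per gene and fraction, never below 0, and no counts, so the coverage of single genes and the error between replicates are unknown. No difference below has a replicate check, and a value of 0 means only that a gene was listed at 0. Intervals for shares are 95% exact binomial (Clopper-Pearson) intervals, and those for medians rest on ranked values. Both describe the spread over genes alone.

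Readthrough transcripts arise when cleavage and polyadenylation at the end of the upstream gene is bypassed and the spliceosome joins an exon of the upstream gene to an exon of the downstream gene. Some keep a single open reading frame across the junction and could give a fusion protein, and others meet an early stop codon and may be targets of nonsense-mediated decay. Because their exons are largely those of the component genes, a short read can be assigned to a readthrough gene for certain only when it spans the junction or lies in an exon of its own.

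The label was checked against GENCODE release 44 on hg38, in which all 65 readthrough-named genes were found by identifier. In all 65 the 2 components lay on the same chromosome and strand as the readthrough-named gene, and the first part of the symbol was the one that starts upstream. GENCODE tagged 59 of the 65 as readthrough genes. The 6 without the tag were BMS1P4-AGAP5, PDXDC2P-NPIPB14P, PKD1P6-NPIPP1, SLX1A-SULT1A3, SLX1B-SULT1A4 and ZNF8-ERVK3-1, and these were also the 6 with a biotype other than protein_coding in the table. The gap between the end of the upstream and the start of the downstream component had a median of 6000 bases, with the widest, 129120 bases, between LINC02210 and CRHR1. In 5 cases the annotated components overlapped. The start of the readthrough-named gene lay within 1000 bases of the start of the upstream component in 48 of 65.

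A median of 90.02% of the exonic bases of a readthrough-named gene were also exonic in a component, with a range from 28.9% for BOLA2-SMG1P6 to 100%. The share was 90% or more in 33 genes, and in 16 no exonic base fell outside the exons of the components. The downstream component usually gave the larger portion, with a median of 51.6% of exonic bases against 31.3% for the upstream component. A protein-coding transcript was annotated for 41 of the 65, and in 37 its coding sequence held bases of both components. In 20 genes at least 1 coding sequence ran from an annotated start codon of the upstream component to an annotated stop codon of the downstream component.

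**Figure D1:**
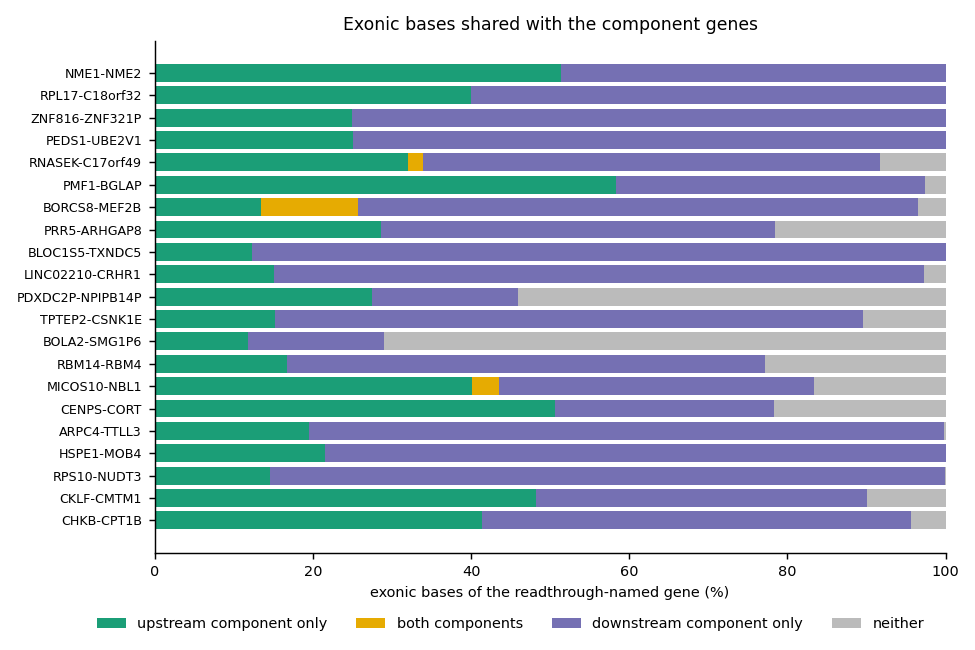
Exonic bases of the 21 readthrough-named genes with the highest means, the largest differences between the IPs, values above 0 in all 3 fractions or the largest excess over both components (percent of each gene's exonic bases), divided into those exonic in the upstream component only, in both components, in the downstream component only and in neither. All exonic bases of NME1-NME2, RPL17-C18orf32, ZNF816-ZNF321P, PEDS1-UBE2V1, BLOC1S5-TXNDC5 and HSPE1-MOB4 lay in a component, and most of those of BOLA2-SMG1P6 and PDXDC2P-NPIPB14P in neither.

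GENCODE had a direct splice junction in 44 of the 65 genes. It leads from an annotated exon end of the upstream component to an annotated exon start of the downstream component. Exon ends or starts that both components have, and exons under 15 bases, were not counted. Junction sequences were read for 43 of the 44 genes, and in all 43 the intron began with GT and ended with AG. The junction is the sequence that sets the readthrough RNA apart from both neighbours, and it is shown for 8 of the 10 readthrough-named genes with the highest mean EPKM over the 3 fractions. RNASEK-C17orf49 and BORCS8-MEF2B, the other 2 of the 10, had no junction that met these conditions, and in both the annotated components overlapped. Each sequence has the last 15 bases of the upstream component's exon in lower case and the first 15 bases of the downstream component's exon in capitals, 5′ to 3′ on the transcribed strand, and the hg38 positions are those of the exon bases on either side of the intron.
NME1-NME2, chr17:51161272-51166827, plus strand: catacaagttggcagGACCATGGCCAACCT
RPL17-C18orf32, chr18:49483771-49489359, minus strand: gcccagaagaaaaagTTGAGGAGCTCAAGC
ZNF816-ZNF321P, chr19:52929414-52952751, minus strand: acctggagtttgtggATATCTCTTCCAAAT
PEDS1-UBE2V1, chr20:50096820-50127975, minus strand: tctgcatcaccacagGAGTAAAAGTCCCTC
PMF1-BGLAP, chr1:156236483-156242553, plus strand: cagcaggcctggcagGTGCGAAGCCCAGCG
PRR5-ARHGAP8, chr22:44726634-44786457, plus strand: ttcgcttctatgaggAGCTGCAGAGAGACA
BLOC1S5-TXNDC5, chr6:7904723-8026367, minus strand: caggaacgaaaaaagGTGTGGACACTGCCA
LINC02210-CRHR1, chr17:45630158-45807010, plus strand: gactcttttctccagGCCCTTCTCCTTCTG
The junction lay inside an annotated coding sequence in NME1-NME2, RPL17-C18orf32, ZNF816-ZNF321P, PEDS1-UBE2V1, PMF1-BGLAP and PRR5-ARHGAP8, and not in BLOC1S5-TXNDC5 or LINC02210-CRHR1. Over all 43 junctions, 26 lay inside a coding sequence.

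Editing above 0 was listed for 25 of the 65 readthrough-named genes in the Input (38.5%, interval 26.6 to 51.4%), for 39 in PABPC IP (60.0%, 47.1 to 72.0%) and for 35 in PABPN IP (53.8%, 41.0 to 66.3%). Over all 18869 genes the shares were 54.9%, 63.1% and 64.9%, so the readthrough-named genes lay below the whole table in the Input and within their interval of it in both IPs. The other 1899 genes without a TPM were above 0 in 20.7% of cases in the Input, 26.7% in PABPC IP and 54.4% in PABPN IP. The intervals of the 2 sets did not overlap in the Input and PABPC IP, where the readthrough-named genes were above 0 more often, and overlapped in PABPN IP. Only 338 of these other genes were protein-coding, and for them the shares were 37.0% in the Input, 46.7% in PABPC IP and 60.7% in PABPN IP. Compared with the protein-coding ones alone, the intervals overlapped in all 3 fractions.

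Another 218 genes without a TPM are tagged as readthrough by GENCODE, but their symbols do not name 2 genes of the table. Of these, 215 were protein-coding by the table's biotype. They were above 0 in 28.0% of cases in the Input (interval 22.1 to 34.4%), 39.0% in PABPC IP (32.5 to 45.8%) and 63.8% in PABPN IP (57.0 to 70.2%). PABPC IP is the fraction in which the intervals of the 2 sets of readthrough genes did not overlap. The rule itself divides these sets, since only the readthrough-named genes had to have both named genes in the table. Whether this requirement accounts for the difference was not tested. The component genes, all 130 of which had a TPM, were above 0 in 65.4%, 66.2% and 70.8% of cases.

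**Figure D2:**
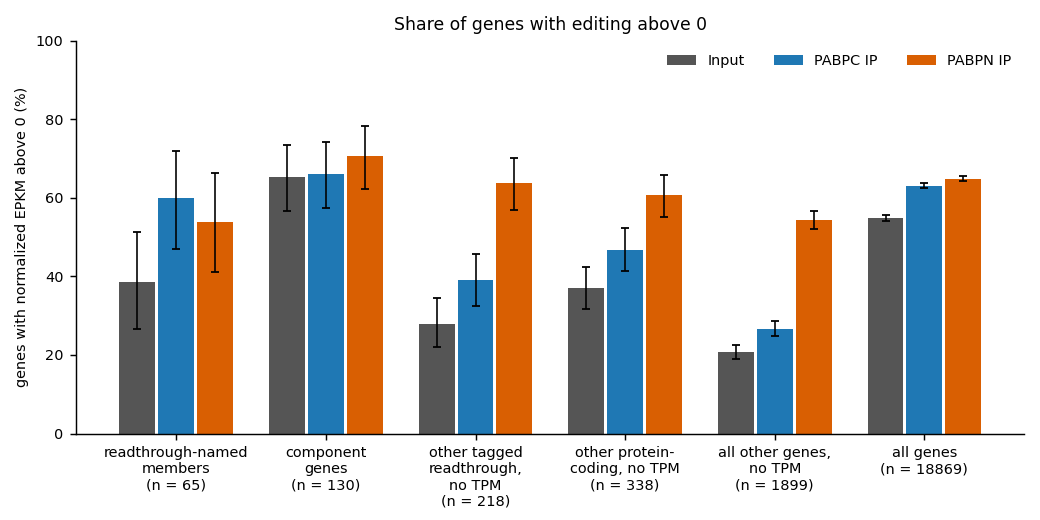
Share of genes with normalized EPKM above 0 (percent) in the Input, PABPC IP and PABPN IP, for the readthrough-named genes, their components and 4 other sets, with 95% exact binomial intervals over genes as bars. The readthrough-named genes reached 60.0% in PABPC IP, where the other tagged readthrough genes reached 39.0%.

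Levels were low for most readthrough-named genes. The median EPKM was 0 in the Input, 0.00442 in PABPC IP (interval 0 to 0.0160) and 0.00346 in PABPN IP (0 to 0.0166), against 0.00389, 0.0144 and 0.0160 over all genes. Among those above 0, the median was 0.0167 in the Input, 0.0246 in PABPC IP and 0.0204 in PABPN IP. In the Input, 4 readthrough-named genes exceeded an EPKM of 0.1, while 2 did in PABPC IP and 4 in PABPN IP. No share over all genes is given for this value, so these counts describe the 65 alone. NME1-NME2 alone held 49.4% of the summed EPKM of all 65 in the Input and 24.4% in PABPC IP, but 1.03% in PABPN IP, where ZNF816-ZNF321P was highest with 19.5%. The mean EPKM of all 65 was 0.0340 in the Input, 0.0260 in PABPC IP and 0.0268 in PABPN IP. Without NME1-NME2, a comparison chosen after its values were seen, the mean of the other 64 was 0.0175, 0.0199 and 0.0270, so that the Input went from the highest mean to the lowest while PABPN IP stayed above PABPC IP.

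Of the 65, 14 were above 0 in all 3 fractions, 19 in 2 fractions, 19 in a single fraction and 13 in none. These shares were 21.5%, 29.2%, 29.2% and 20%, against 31.8%, 30.5%, 26.6% and 11.1% over all genes. The 19 seen in a single fraction were 9 in PABPC IP, 9 in PABPN IP and 1, RPL36A-HNRNPH2, in the Input. Those listed at 0 throughout included C1QTNF3-AMACR, HNRNPUL2-BSCL2, INO80B-WBP1, RNF103-CHMP3, SYNJ2BP-COX16, TRIM39-RPP21 and TSNAX-DISC1. Among the 52 above 0 somewhere, the highest value was in PABPN IP for 24, in PABPC IP for 18 and in the Input for 10. PABPN IP therefore held the highest value for 46.2% of these, against 40.5% over all genes above 0 somewhere and 65.5% over the other tagged readthrough genes.

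**Figure D3:**
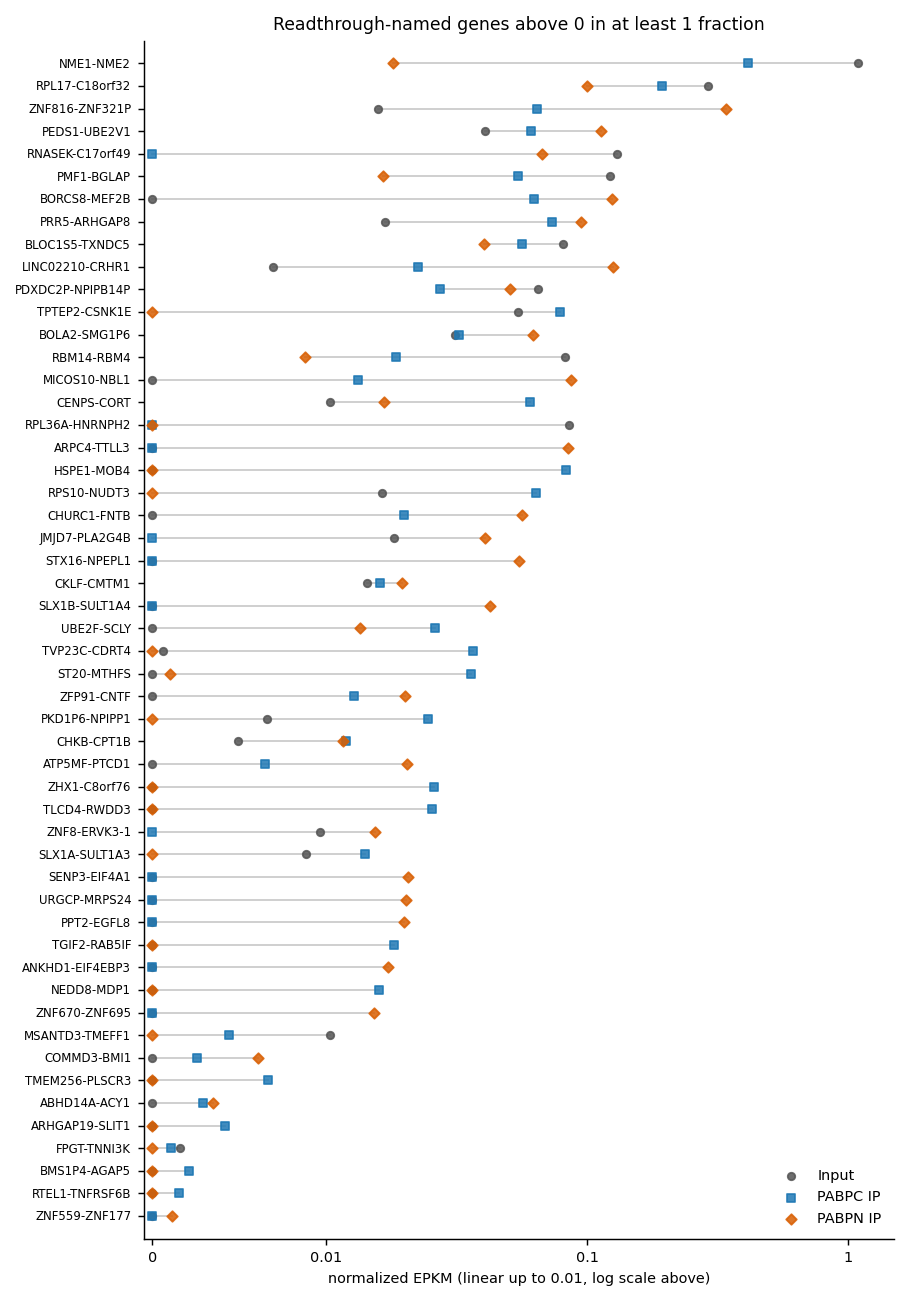
Normalized EPKM of the 52 readthrough-named genes above 0 in at least 1 fraction, ordered by their mean, in the Input (circles), PABPC IP (squares) and PABPN IP (diamonds). The axis is linear up to 0.01 and logarithmic above, a line joins the lowest and highest value of a gene, and NME1-NME2 in the Input, at 1.09, lies furthest to the right.

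NME1-NME2 (ENSG00000011052) joins the genes of nucleoside diphosphate kinases A and B, which transfer phosphate between nucleotides. Its EPKM was 1.09 in the Input, 0.412 in PABPC IP and 0.0180 in PABPN IP, the highest of all 65 in the Input and PABPC IP. Its longest annotated coding sequence had 292 codons, against 177 for NME1 and 152 for NME2, and all 3 of its coding transcripts began at a start codon of NME1 and ended at a stop codon of NME2. NME1 was at 0.528, 0.241 and 0.0125, and NME2 at 0.243, 0.787 and 0.0562, in the same order of fractions. The readthrough-named gene was therefore above both in the Input and between them in both IPs. Both components were abundant, with TPM in the Input of 148.1 for NME1 and 539.1 for NME2.

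RPL17-C18orf32 (ENSG00000215472) begins in the gene of a protein of the large ribosomal subunit. It was at 0.290 in the Input, 0.193 in PABPC IP and 0.0996 in PABPN IP. It exceeded both components in each fraction, and in PABPC IP RPL17 and C18orf32 were both listed at 0 although RPL17 had a TPM of 906.4 there. RPL17 was at 0.217 in the Input and 0.0409 in PABPN IP, and C18orf32 at 0.00586 and 0.0101. All exonic bases of RPL17-C18orf32 were exonic in a component.

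ZNF816-ZNF321P (ENSG00000221874) joins a zinc finger gene to a zinc finger pseudogene and had the reverse order of fractions. Its EPKM was 0.0158 in the Input, 0.0641 in PABPC IP and 0.341 in PABPN IP, the highest of all 65 in PABPN IP. ZNF816 was listed at 0 in all 3 fractions, and ZNF321P only in PABPN IP above 0, at 0.0521. Its exons, too, lay entirely within those of the components. TPM in PABPN IP was 3.37 for ZNF816 and 16.9 for ZNF321P, so both were far less abundant than NME1 or RPL17.

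Of the other 7 with the highest means, 4 were highest in PABPN IP, of which 3 are described. LINC02210-CRHR1 links a non-coding gene to the receptor gene of corticotropin-releasing hormone and was at 0.00693 in the Input, 0.0225 in PABPC IP and 0.125 in PABPN IP. CRHR1 itself was at 0 in the Input and PABPC IP and at 0.00429 in PABPN IP. LINC02210 was at 0.0109, 0.0487 and 0.0416 in the same order, above the readthrough-named gene in the Input and PABPC IP. BORCS8-MEF2B, whose components encode a subunit of the lysosome-positioning BORC complex and a transcription factor, was at 0, 0.0625 and 0.124. PEDS1-UBE2V1, which joins plasmanylethanolamine desaturase to a ubiquitin-conjugating enzyme variant, was at 0.0407, 0.0609 and 0.113 in the same order. The remaining 3 were highest in the Input.

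PMF1-BGLAP joins a kinetochore subunit gene to the osteocalcin gene and was at 0.122 in the Input, 0.0541 in PABPC IP and 0.0164 in PABPN IP. BLOC1S5-TXNDC5, from a subunit gene of the BLOC-1 complex and an endoplasmic reticulum disulfide isomerase gene, was at 0.0806, 0.0563 and 0.0400. RNASEK-C17orf49 was at 0.129 in the Input, 0 in PABPC IP and 0.0670 in PABPN IP. Its downstream component C17orf49 was at 0.155 in the Input and at 0 in both IPs. The upstream component RNASEK had the reverse pattern of the readthrough-named gene. It was listed at 0 in the Input but at 1.08 in PABPC IP and 0.694 in PABPN IP. The TPM of RNASEK in the Input was 183.8. RNASEK was thus the highest of all 130 components in both IPs and listed at 0 in the Input.

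**Figure D4:**
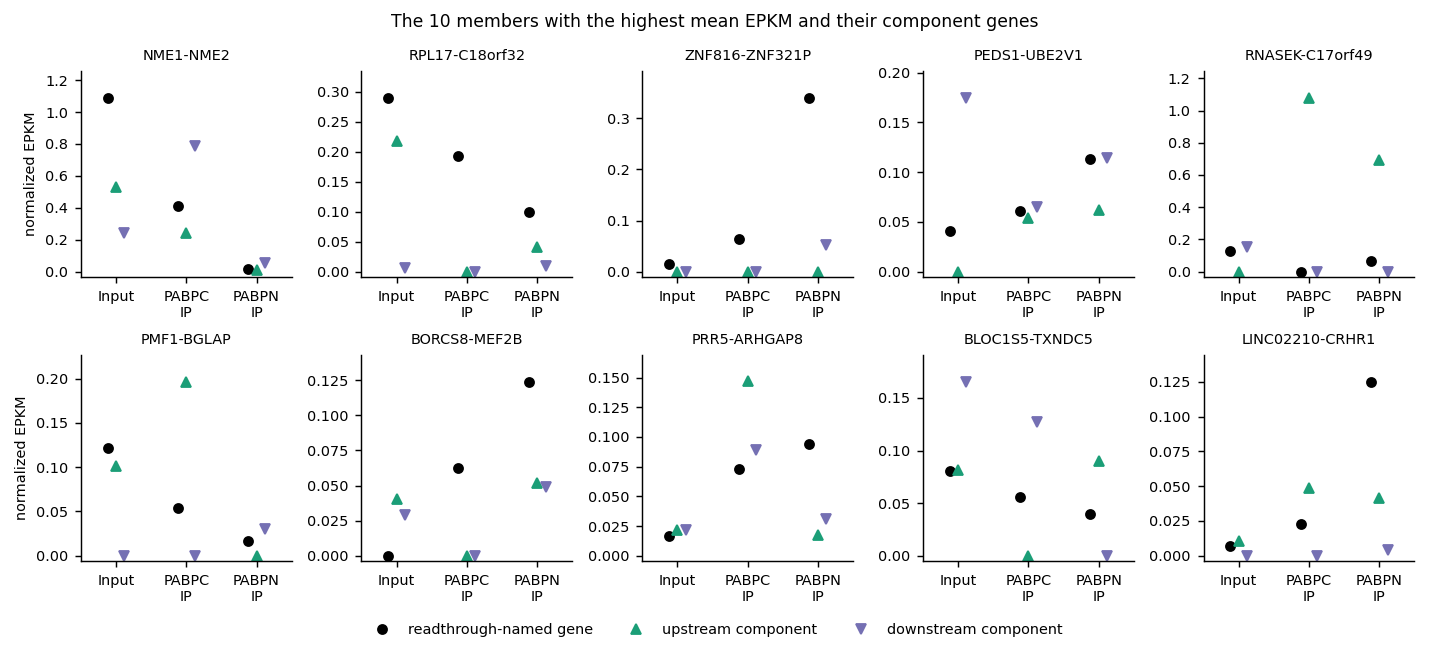
Normalized EPKM in the Input, PABPC IP and PABPN IP of the 10 readthrough-named genes with the highest mean (circles), their upstream components (upward triangles) and their downstream components (downward triangles), each panel with its own scale. NME1-NME2 at 1.09 stood above both components in the Input, and ZNF816-ZNF321P at 0.341 above both in PABPN IP.

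The 14 readthrough-named genes above 0 in all 3 fractions included 8 of the 10 above, all except RNASEK-C17orf49 and BORCS8-MEF2B. The other 6 were lower. PDXDC2P-NPIPB14P, made of 2 transcribed pseudogenes, was at 0.0646 in the Input, 0.0271 in PABPC IP and 0.0506 in PABPN IP. RBM14-RBM4 joins the genes of a pair of RNA-binding proteins and was at 0.0819, 0.0184 and 0.00879. CENPS-CORT, from a centromere protein gene and the gene of the neuropeptide cortistatin, was at 0.0103, 0.0603 and 0.0166. BOLA2-SMG1P6 was at 0.0310, 0.0321 and 0.0617, CKLF-CMTM1 at 0.0143, 0.0160 and 0.0195, and CHKB-CPT1B at 0.00489, 0.0119 and 0.0116.

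Against their components, more readthrough-named genes lay below both than above both when those listed at 0 were counted. In the Input 24 of 65 lay below both components, 11 between them, 8 above both and 22 were equal to at least 1 of them, all of these at 0. The numbers were 22, 21, 10 and 12 in PABPC IP, and 20, 17, 12 and 16 in PABPN IP. The share above both was 12.3% in the Input, 15.4% in PABPC IP and 18.5% in PABPN IP, with intervals of 5.47 to 22.8%, 7.63 to 26.5% and 9.92 to 30.0%. The same 65 genes enter each fraction, so these separate intervals do not compare the fractions, and no order is read from them. Of those below both, 18 of 24 in the Input, 14 of 22 in PABPC IP and 14 of 20 in PABPN IP were themselves listed at 0. The 5 that exceeded the higher component by most in any fraction were NME1-NME2 by 0.563, ZNF816-ZNF321P by 0.288, RPL17-C18orf32 by 0.193, LINC02210-CRHR1 by 0.0836 and MICOS10-NBL1 by 0.0785. MICOS10-NBL1, from a gene of the mitochondrial MICOS complex and that of a secreted BMP antagonist, was at 0.0863 in PABPN IP, where MICOS10 was at 0.00775 and NBL1 at 0. In the Input it was at 0 with MICOS10 at 0.0938, and in PABPC IP at 0.0132 with NBL1 at 0.0501.

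The median difference from the upstream component was −0.00451 EPKM in the Input, −0.0201 in PABPC IP and −0.0199 in PABPN IP. From the downstream component it was −0.00501, −0.00210 and −0.00387. Upstream components themselves had median EPKM of 0.0217, 0.0381 and 0.0329, and downstream components 0.0196, 0.0137 and 0.0140. With both components at a TPM of 5 or more in each IP, the median difference from the downstream component was −0.0281 in the Input, −0.00762 in PABPC IP and −0.0109 in PABPN IP, so its size depends on the genes included. The distance to the upstream gene was the larger of the pair in both IPs. In the Input the medians were nearly equal, and by means the upstream distance was the larger there, at −0.0366 against −0.01565. With both components at a TPM of 5 or more, the order in the Input was the opposite, at −0.00282 upstream against −0.0281 downstream. Upstream components had the higher median in all 3 fractions. Their median TPM was higher as well, at 14.3 against 8.67 in the Input, 32.2 against 14.1 in PABPC IP and 35.9 against 23.6 in PABPN IP.

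Values often differed although exons were shared. How edits in shared exons were assigned is not known, so they may have been counted for several genes or for only 1. In the Input both components were above 0 for 27 readthrough-named genes, of which 18 were themselves at 0, and in each IP this was 14 of 30. SENP3-EIF4A1, whose downstream component encodes a translation initiation helicase, was at 0 in the Input and PABPC IP while SENP3 was at 0.157 and 0.247 and EIF4A1 at 0.339 and 0.104. HNRNPUL2-BSCL2, with all exonic bases inside its components, was at 0 in PABPN IP while HNRNPUL2 was at 0.134 and BSCL2 at 0.0358. Both of these were chosen after their values were seen. The opposite case, a readthrough-named gene above 0 with both components at 0, occurred for 3 genes in the Input, 6 in PABPC IP and 1, ZFP91-CNTF at 0.0199, in PABPN IP. The 3 in the Input were ZNF816-ZNF321P, PDXDC2P-NPIPB14P and CENPS-CORT.

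**Figure D5:**
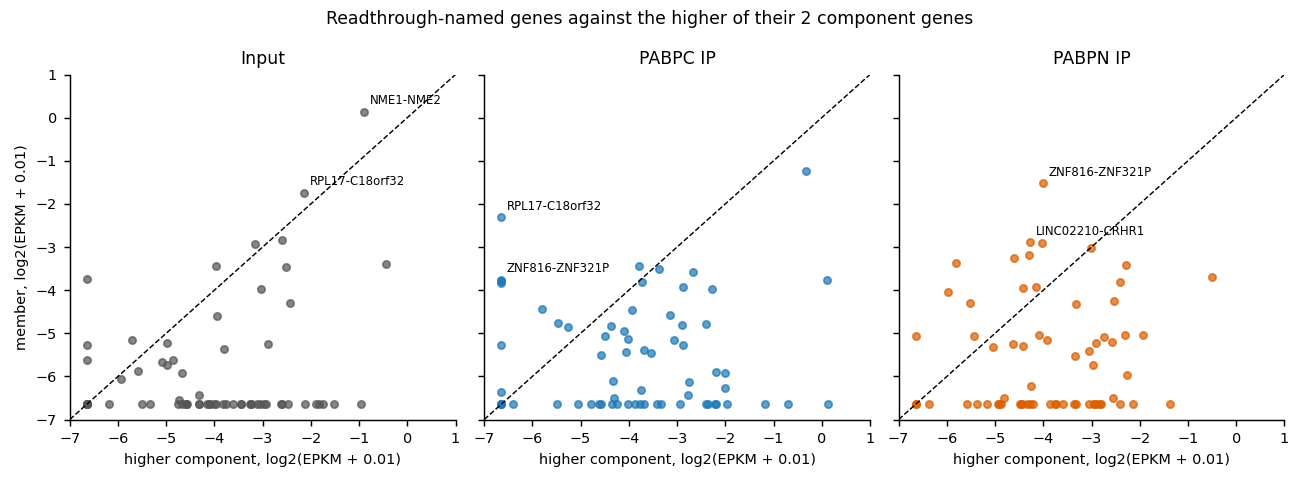
Each of the 65 readthrough-named genes against the higher of its 2 components in the Input, PABPC IP and PABPN IP, both as log2(EPKM + 0.01), with equality as a dashed line. Points along the bottom are readthrough-named genes listed at 0, and the labelled points are the pair in each fraction that exceeded the higher component by most.

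Across the 65 genes the rank correlation of a readthrough-named gene with its upstream component was −0.05 in the Input, −0.06 in PABPC IP and 0.10 in PABPN IP. With the downstream component it was 0.08, 0.01 and 0.01. With the TPM of the upstream component it was 0.07, 0.18 and 0.02, and with that of the downstream component 0.07, 0.18 and −0.07. These describe genes of the same libraries, which are not independent replicates, and many of the values are tied at 0. Among genes above 0 in a fraction, the correlation with the downstream component was 0.51 in the Input, 0.28 in PABPC IP and 0.02 in PABPN IP, and with the upstream component 0.20, −0.11 and 0.01.

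Between the IPs, 15 of 65 readthrough-named genes (23.1%, interval 13.5 to 35.2%) were at least 2-fold higher in PABPN IP than in PABPC IP on the log2(EPKM + 0.01) scale, which understates the fold of low values. Over all genes tested this was 25.5%. At least 2-fold higher in PABPC IP were 14 of 65 (21.5%, 12.3 to 33.5%), against 26.1% over all genes. Both shares were near the background of the table. With a pseudocount of 0.1 EPKM they fell to 1.54% each, against 4.90% and 5.83% over all genes. The other tagged readthrough genes were at least 2-fold higher in PABPN IP in 36.7% of cases and in PABPC IP in 11.9%, and the other genes without a TPM in 39.0% and 12.4%. The median difference between PABPC IP and PABPN IP over the 65 was 0, with 25 higher in PABPC IP, 26 higher in PABPN IP and 14 equal.

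The 5 readthrough-named genes with the largest excess in PABPC IP were NME1-NME2 by 0.394 EPKM, RPL17-C18orf32 by 0.0933, HSPE1-MOB4 by 0.0825, TPTEP2-CSNK1E by 0.0783 and RPS10-NUDT3 by 0.0633. HSPE1-MOB4, which begins in the gene of a mitochondrial co-chaperonin, was at 0.0825 in PABPC IP and at 0 in the Input and PABPN IP, and all of its exonic bases lay in a component. TPTEP2-CSNK1E, which leads from a pseudogene into the casein kinase 1 epsilon gene, was at 0.0541 in the Input, 0.0783 in PABPC IP and 0 in PABPN IP. Its longest coding sequence had 416 codons, the same number as that of CSNK1E.

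The 5 with the largest excess in PABPN IP were ZNF816-ZNF321P with a difference, PABPC IP minus PABPN IP, of −0.276, LINC02210-CRHR1 with −0.103, ARPC4-TTLL3 with −0.0840, MICOS10-NBL1 with −0.0731 and RNASEK-C17orf49 with −0.0670. ARPC4-TTLL3 joins the gene of an Arp2/3 complex subunit to that of a tubulin glycylase, and was at 0.0840 in PABPN IP and at 0 in the Input and PABPC IP. ARPC4 was itself at 0.195 in PABPN IP and at 0 in PABPC IP. TTLL3 was at 0.0701 and 0.0261 in the same order. The readthrough-named gene and both components were therefore all higher in PABPN IP.

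Readthrough-named genes were also grouped by the families of their components, with at most 4 genes in a group, so that the counts describe these genes alone. RPL17-C18orf32, RPL36A-HNRNPH2 and RPS10-NUDT3 begin in a ribosomal protein gene. All 3 were above 0 in the Input, 2 in PABPC IP and 1 in PABPN IP. The shares over all 65 were 38.5%, 60.0% and 53.8% in this order, and over all genes 54.9%, 63.1% and 64.9%. RPL36A-HNRNPH2 was listed at 0 in both IPs and at 0.0847 in the Input, although RPL36A was at 0.603 in PABPC IP and 0.167 in PABPN IP. RPS10-NUDT3 was at 0.0163 in the Input, 0.0633 in PABPC IP and 0 in PABPN IP, where RPS10 was at 0, 1.07 and 0.376. Ribosomal protein genes have many processed pseudogenes, so reads from them can be hard to place, and the part of this in the values was not tested.

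There were 4 with a numbered zinc finger gene as a component. All were above 0 in PABPN IP, 2 in the Input and only ZNF816-ZNF321P in PABPC IP. The shares over all 65 were 53.8%, 38.5% and 60.0% in this order, and over all genes 64.9%, 54.9% and 63.1%. Apart from ZNF816-ZNF321P they were low in PABPN IP, with ZNF8-ERVK3-1 at 0.0153, ZNF670-ZNF695 at 0.0152 and ZNF559-ZNF177 at 0.00111. ATP5MF-PTCD1, which starts in an ATP synthase gene, was at 0, 0.00645 and 0.0204 in the Input, PABPC IP and PABPN IP, while ATP5MF was at 0.504, 0.238 and 0.251. TMEM256-PLSCR3, the single one with a TMEM or SLC symbol in its name, was at 0.00665 in PABPC IP and 0 elsewhere. In both, the upstream component was above 0 in all 3 fractions.

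By biotype, the 59 protein-coding readthrough-named genes were above 0 in 35.6% of cases in the Input, 59.3% in PABPC IP and 54.2% in PABPN IP. The other 6 were above 0 in 4, 4 and 3 cases. Over all genes the shares above 0 were 54.9%, 63.1% and 64.9% in the same order of fractions. The 20 with a coding sequence from the upstream start to the downstream stop were above 0 in 9, 14 and 12 cases. Of the 17 whose coding sequence spans both components with other ends, 8, 10 and 8 were above 0, and of the 28 without a coding sequence over both components 8, 15 and 15. The median in PABPC IP was 0.0112 for the 20, 0.0160 for the 17 and 0.00180 for the 28, and in PABPN IP 0.00742, 0 and 0.00634. The 33 that share 90% or more of their exonic bases with the components were above 0 in 39.4%, 63.6% and 54.5% of cases, and the other 32 in 37.5%, 56.2% and 53.1%. Their median EPKM was 0 for both sets in the Input, 0.0119 against 0.00180 in PABPC IP and 0.00604 against 0.00107 in PABPN IP. The means were 0.0578 against 0.00950 in the Input, 0.0366 against 0.0150 in PABPC IP and 0.0357 against 0.0177 in PABPN IP. The first set includes NME1-NME2, the highest of the 65 in the Input and PABPC IP, and ZNF816-ZNF321P, the highest in PABPN IP. Its means depend in part on these genes in all 3 fractions.

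There were 4 genes with the same kind of name that did have a TPM and were not counted among the 65. BCL2L2-PABPN1 runs from an apoptosis regulator gene into the gene of PABPN itself and was at 0 in the Input, 0.00798 in PABPC IP and 0 in PABPN IP, with TPM of 18.0, 49.2 and 89.0. PABPN1 was at 0.235 in the Input, 0 in PABPC IP and 0.237 in PABPN IP. TIMM23B-AGAP6 was at 0.00105, 0 and 0.0462, with TPM of 4.54, 2.09 and 47.8. ARMCX5-GPRASP2 was at 0.00556, 0.0284 and 0, with TPM of 3.62, 7.52 and 9.00, and PTGER4P2-CDK2AP2P2 at 0.0127, 0 and 0, with TPM of 0.228, 0.422 and 1.01. None of the 4 was above 0 in all 3 fractions.

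Near-identical copies limit a few values. SLX1A-SULT1A3 and SLX1B-SULT1A4 are duplicated loci on chromosome 16, and their junctions have the same 30 bases, tcagaattagaagagGAACATGGAGCTGAT, at chr16:30197357-30200725 and chr16:29458015-29461382 on the plus strand. SLX1A-SULT1A3 was at 0.00883 in the Input, 0.0140 in PABPC IP and 0 in PABPN IP, and SLX1B-SULT1A4 at 0, 0 and 0.0423. Reads from the 2 copies may not be separable here. BMS1P4, upstream component of BMS1P4-AGAP5, is the symbol of 2 identifiers, and the one with a TPM was used, which was at 0 in all 3 fractions. The other was at 0.0537 in PABPN IP and at 0 in the Input and PABPC IP, and BMS1P4-AGAP5 was at 0.00207 in PABPC IP and 0 elsewhere.

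The cells were checked by markers fixed for HEK293T. All 6, VIM, KRT8, KRT18, PAX2, LIN28B and NEFM, were in the table, and their TPM summed to 258.2 in the Input, 393.6 in PABPC IP and 347.3 in PABPN IP. VIM, at 183.8, 240.8 and 144.3, gave most of this in the Input and PABPC IP, and LIN28B, at 165.1, the largest part in PABPN IP. PAX2 was low, at 0.797, 1.28 and 2.41. Of 6 markers of other cells, ALB, PTPRC, CD3E and HBB had no row in the table. APOA1 and COL1A1 together summed to a TPM of 2.30, 2.78 and 6.56. COL1A1, at 1.90, 2.15 and 4.42, was above PAX2 in each fraction. In PABPN IP it was also above KRT8, which was at 2.16, 3.86 and 3.12 in the same order of fractions.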

How the data were processed

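Reads were mapped to hg38 by the authors using STAR. They kept C-to-U edits over a minimum confidence, scaled them to EPKM and subtracted the control. The deposited normalized EPKM is such a background-subtracted signal. How replicates were combined, how differences below 0 were treated and which annotation assigned edits to genes is not given in the sources used here. The deposited TPM, treated here as a score, is the authors' average per fraction of exonic plus intronic TPM, counted with featureCounts 2.0.2 after removing readthrough transcripts, and regions where genes overlap, from the annotation. Which samples enter each average is not given. TPM summed to 854272 in the Input, 995724 in PABPC IP and 975719 in PABPN IP.

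Computed here were counts, shares, medians, differences and rank correlations over genes, with no test, since each value is pooled. Folds used a pseudocount of 0.01 EPKM and a threshold of 2-fold. A component symbol with several identifiers was represented by the one with a TPM. Positions, exons, coding sequences and junctions came from GENCODE release 44 and hg38. Listed by rule were the 10 with the highest mean, the 5 with the largest difference between the IPs in each direction, all above 0 in the 3 fractions, the 5 furthest above both components, and components of these. Other genes are named as members of a small group, as single cases or as duplicated loci. The values of 1 of the 10 are not reported here. The members and lists were chosen with earlier results of these data known. The rule, the classes and the fold counts were tested on simulated data. Alternatives changed the rule, thresholds, summaries and gene sets. Shares that stayed within their interval, medians within theirs, rank correlations within 0.1 and counts within 1.5 times were taken as unmoved. Software was pysam 0.24.0, matplotlib 3.10.9, SciPy 1.17.1, pandas 2.3.3 and NumPy 2.4.6 under Python 3.11.15.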

Additional observations from a re-analysis of the deposited data

How the results depend on the processing

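The readthrough-named genes numbered 65 with the symbol divided at any hyphen, 69 with genes that have a TPM and 59 with tagged genes only. Of 87 alternative values, 43 were unmoved by the criteria given with the methods. What moved the others was not tested beyond what each alternative changes by construction. No paired analysis was possible because each value is pooled over replicates, for which reason no replicate could be left out either. The coverage of single genes is unknown.

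With a threshold of 0.01 EPKM, 46.2% of readthrough-named genes passed in PABPC IP, and of the other genes without a TPM 16.9% in the Input, 23.4% in PABPC IP and 49.2% in PABPN IP. Protein-coding ones among those others were above 0 in 37.0%, 46.7% and 60.7% of cases. Means in place of medians gave 0.0340 in the Input, 0.0260 in PABPC IP and 0.0268 in PABPN IP, and without NME1-NME2, chosen after seeing the data, 0.0175, 0.0199 and 0.0270.

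With differences of at most 0.01 EPKM taken as equal, 21.5% lay below both components in the Input and 21.5% in PABPC IP, 7.69% and 16.9% lay between them, and 60.0%, 49.2% and 46.2% were equal in the Input, PABPC IP and PABPN IP. Among genes above 0 in that fraction, 24.0%, 20.5% and 17.1% lay below both, 44%, 53.8% and 48.6% between, 32.0%, 25.6% and 34.3% above both, and 0% were equal in each fraction. This subset leaves out by construction only genes that cannot lie above both, so the larger share above both is expected.

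The mean difference from the upstream component was −0.0366 in the Input, −0.0807 in PABPC IP and −0.0384 in PABPN IP, and from the downstream component −0.01565 in the Input, −0.0200 in PABPC IP and −0.0174 in PABPN IP. With both components at a TPM of 5 or more in each IP, the median difference from the downstream component was −0.0281 in the Input, −0.00762 in PABPC IP and −0.0109 in PABPN IP. From the upstream component it was −0.00282, −0.0148 and −0.0283 in the same order.

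At a pseudocount of 0.1 EPKM 1.54% were at least 2-fold higher in PABPN IP and 1.54% in PABPC IP, and at 4-fold 12.3% and 9.23%, against 13.4% and 14.3% over all genes at 4-fold. Among genes above 0 in that fraction, the rank correlation with the upstream component in the Input changed sign to 0.20, and that with the downstream component was 0.51 in the Input and 0.28 in PABPC IP. In PABPN IP it was 0.02, and with the upstream component it was −0.11 in PABPC IP and 0.01 in PABPN IP.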
